A study of Mus musculus with 9 samples.

Results

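The array described here is labelled as a healthy mouse bladder taken 24 h after instillation of 17 mM alpha1-oleate, and it was set against the healthy PBS array of the same experiment. These are 2 of the 9 arrays of the series, 1 on each side, so every difference below is a description of 2 arrays with no test and no replicate check. All mice were female C57BL/6J, and the tissue was whole bladder. Experiment 2 also held 1 healthy bladder taken 7 d after 17 mM alpha1-oleate and 1 tumour bladder given PBS and taken at day 12, called the sham tumour here. Experiment 1 held 5 arrays, which were tumour bladders given 1.7, 8.5 or 17 mM alpha1-oleate or PBS, all taken at day 12, and a healthy bladder given PBS. Tumours were started on day 0 by instilling MB49 cells, a mouse bladder carcinoma line, after the bladder had been coated with poly-L-lysine. The tumour bladders then received 5 instillations, the first on day 3 and the last on day 11. The labels give the healthy PBS bladders no time of collection, give no number of instillations for the healthy treated bladders, and do not say whether an array was 1 animal or a pool. The healthy bladders were treated to look for toxicity of the agent in tissue without a tumour.

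Alpha1-oleate is a complex of a peptide of the milk protein alpha-lactalbumin with oleate, a fatty acid. The bladder lining, the urothelium, is a slowly renewing epithelium whose surface cells carry uroplakin plaques above a layer of basal cells, and it lies on a collagen-rich lamina propria and on the smooth muscle of the detrusor. Injury of this lining is known to bring leukocytes into the wall, to start division of basal cells and to be followed by matrix repair. A tumour grown from implanted cells adds dividing carcinoma cells and their infiltrate and takes the place of normal wall. In bulk tissue, fewer cells of a type and less RNA per cell cannot be told apart.

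Values are log2 RMA signals of 1 probe set per gene, differences are in log2 units, and a gene was called where the 24 h-labelled array lay 2-fold or more (1 log2) from healthy PBS. Of the 17097 genes with a named probe set, 11969 lay above a filter on mean signal. The spread of a difference can be seen in one place only, since sham tumour minus healthy PBS was measured once in each experiment. The 2 values of that difference lay 0.18 log2 apart at the median gene and 0.72 at the 95th percentile, and 196 genes (1.64%) disagreed by 1 log2 or more.

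The tumour-type transcripts of the array went against its label of a healthy bladder, and it is called the 24 h-labelled array throughout for that reason. It carried transcripts of dividing cells, of a squamous keratin and of leukocytes at levels between those of the sham tumour and of healthy PBS, while its urothelial and muscle markers stayed near healthy levels. Top2a, the topoisomerase of dividing cells, was at 7.59 log2 in the 24 h-labelled array, 3.93 at 7 d, 9.82 in the sham tumour and 3.66 in healthy PBS. Mki67, the proliferation antigen Ki-67, was at 6.83 log2 in the 24 h-labelled array, 4.19 at 7 d, 9.25 in the sham tumour and 3.41 in healthy PBS. Birc5, the mitotic survival protein survivin, was at 7.13, 3.69, 9.01 and 3.23 log2 in the same order of arrays. For each of these genes the 7 d and healthy PBS arrays were low, the sham tumour was high and the 24 h-labelled array stood between them. Krt14, a keratin of basal and squamous epithelium, was at 7.20 log2 in the 24 h-labelled array, 4.30 at 7 d, 8.98 in the sham tumour and 3.59 in healthy PBS. Rhox5, a homeobox gene of testis that many mouse tumour lines express, was at 7.28 log2 in the 24 h-labelled array, 4.78 at 7 d, 8.91 in the sham tumour and 4.79 in healthy PBS. It was the only one of 3 germline genes above the filter to pass 2-fold. The others, Dnmt3l and Tex19.1, differed from healthy PBS by -0.89 and -0.21 in the 24 h-labelled array, and by -3.18 and -0.04 in the sham tumour.

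The bladder's own markers were present. Upk2, a uroplakin of the surface cells, was at 10.36 log2 in the 24 h-labelled array, 11.23 at 7 d, 7.43 in the sham tumour and 10.86 in healthy PBS. Upk3a, another uroplakin, was at 11.18, 11.66, 7.52 and 11.69 log2 in the same order. Upk1b, a tetraspanin of the same plaques, was at 11.13 log2 in the 24 h-labelled array, 11.75 at 7 d, 7.94 in the sham tumour and 11.74 in healthy PBS. In all of these the 24 h-labelled array lay within 1 log2 of healthy PBS, and the sham tumour was far below. The 17 mM tumour of experiment 1 also lay within 1 log2 of its healthy PBS array, by -0.66 for Upk2, -0.53 for Upk3a and -0.82 for Upk1b. These markers therefore do not set a healthy bladder apart from a tumour bladder given 17 mM. Myh11, the myosin of smooth muscle, was at 11.74 log2 in the 24 h-labelled array, 11.33 at 7 d, 9.42 in the sham tumour and 11.54 in healthy PBS. Xist, the RNA that coats the inactive X of female cells, was at 10.06 log2 in the 24 h-labelled array, 10.17 at 7 d, 8.97 in the sham tumour and 10.22 in healthy PBS. In the 17 mM tumour of experiment 1, Myh11 and Xist differed from healthy PBS by 0.67 and -0.11. The Y-linked genes lay below the filter. Eif2s3y, a translation factor subunit, was at 2.27 log2 in the 24 h-labelled array, 2.28 at 7 d, 3.18 in the sham tumour and 2.32 in healthy PBS. In experiment 1 it was at 3.45 log2 in the sham tumour, 3.20, 2.96 and 2.78 in the tumours given 1.7, 8.5 and 17 mM, and 2.09 in healthy PBS. Within experiment 2 the 24 h-labelled array was thus level with healthy PBS for Eif2s3y and 0.91 log2 below the sham tumour. The 2 experiments were normalized apart, so its value is not ranked against the tumours of experiment 1. It lay near the lowest signal of its array (1.95 log2), and the tumour difference of Eif2s3y disagreed by 0.50 between the experiments. A contrast with the proliferation markers can therefore not be read from this gene. Kdm5d was at 3.27, 3.34, 3.44 and 3.53 log2 and Uty at 2.90, 2.97, 2.95 and 2.98 log2 in the 24 h-labelled, 7 d, sham tumour and healthy PBS arrays, and Ddx3y was not measured here.

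**Figure D1:**
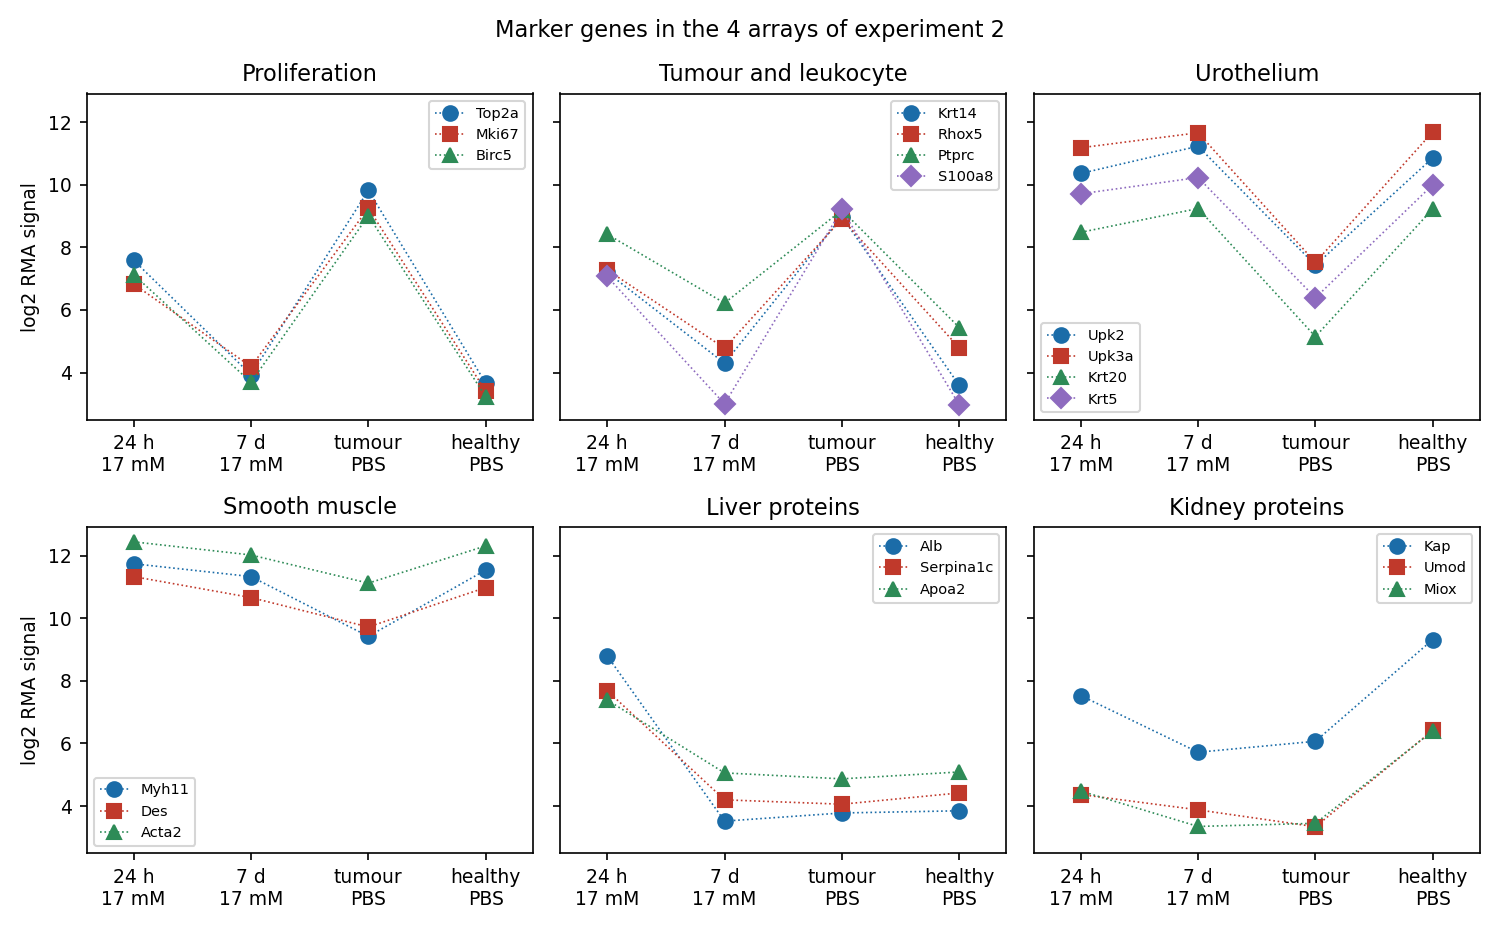
Log2 RMA signal (vertical axis) of marker genes in the 4 arrays of experiment 2 (horizontal axis), 1 point per gene and array, with lines only to guide the eye. The 24 h-labelled array stands between sham tumour and healthy PBS for proliferation and leukocyte genes, near healthy PBS for urothelium and muscle, and alone at the top for liver proteins.

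Genes chosen by their tumour difference in experiment 1 were higher and lower in the same directions. The filter and the choice of probe set used the mean of all 9 arrays, but the difference that chose these genes used none of experiment 2. In experiment 1, 701 genes were 4-fold or more higher in the sham tumour than in healthy PBS. Their median difference from healthy PBS was 1.12 in the 24 h-labelled array, 0.05 at 7 d and 2.55 in the sham tumour of experiment 2. Of the 701 genes, 395 (56.3%) were past 2-fold higher in the 24 h-labelled array and 0 past 2-fold lower, where 4.83% of all genes were higher. At 7 d 21 of them (3.0%) were higher. The 656 genes that were 4-fold or more lower in the sham tumour of experiment 1 had a median difference of -0.56 in the 24 h-labelled array, -0.06 at 7 d and -2.72 in the sham tumour of experiment 2. Of these, 29 (4.42%) passed 2-fold lower in the 24 h-labelled array, against 0.284% of all genes, and 1 passed 2-fold higher. At 7 d 35 of them (5.34%) passed 2-fold lower, against 0.593% of all genes, and 3 passed 2-fold higher. The share of lower calls thus did not set the 24 h-labelled array apart from the 7 d array.

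In all, 578 genes (4.83%) were 2-fold or more higher and 34 (0.284%) lower in the 24 h-labelled array than in healthy PBS, with a median difference of -0.04 over all genes. Each count for a gene list below is to be read beside these 2 shares. Without regard to size, 5257 of the 11969 genes had a positive difference and 6540 a negative one. For the 7 d array, which was set against the same healthy PBS array, the counts were 101 higher (0.844%) and 71 lower (0.593%). For the sham tumour they were 1686 higher (14.1%) and 1809 lower (15.1%). The split between higher and lower was thus nearly even in the sham tumour and one-sided in the 24 h-labelled array. The number of lower genes depends on the healthy PBS array used, and was 253 against that of experiment 1 and 90 against the mean of both.

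Genes of mitosis were among the largest increases, with 3 of the 15 largest in the cell cycle list. The promoters of Top2a and Mki67 are shown because they are fixed markers of proliferation and hold both motifs searched. Such genes are known to be read through CCAAT boxes and through the cell cycle homology region (TTTGAA). The sequences run from 150 bases before to 1 base before the transcription start, come from RefSeq on GRCm38.p6, and carry in capitals every CCAAT and TTTGAA on either strand. Top2a lies on the minus strand at chr11:99024190-99024339 and Mki67 on the minus strand at chr7:135716380-135716529.
Top2a: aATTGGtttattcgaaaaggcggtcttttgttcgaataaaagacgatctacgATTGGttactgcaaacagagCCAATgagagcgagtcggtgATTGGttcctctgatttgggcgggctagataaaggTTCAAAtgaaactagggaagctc
Mki67: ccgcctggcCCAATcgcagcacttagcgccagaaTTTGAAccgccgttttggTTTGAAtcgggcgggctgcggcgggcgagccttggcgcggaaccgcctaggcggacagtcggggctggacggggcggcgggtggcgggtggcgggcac
Top2a held CCAAT 4 times, with first bases at -149, -98, -78 and -58, and TTTGAA at -23. Mki67 held CCAAT at -141 and TTTGAA at -116 and -98. Birc5, with a larger difference than Mki67, held neither motif, and Cep55 held no CCAAT and had TTTGAA in 1 of its 2 promoter entries. Of the 23 cell cycle genes above the filter, 19 had a promoter entry, and 16 of these held CCAAT and 8 held TTTGAA. Over the 27025 genes in the table the shares were 27.7% and 10.5%, and over its 32851 promoters 24.5% and 9.07%. These are matches of letters, not measured sites.

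Of the 23 cell cycle genes, 21 were past 2-fold higher in the 24 h-labelled array and 0 past 2-fold lower, against 4.83% of all genes, with a median difference of 1.79. The medians were 0.17 at 7 d and 3.70 in the sham tumour. The differences were 3.93 for Top2a (15.2-fold), 3.90 for Birc5, 3.54 for Cep55, which acts in the final cut of cell division, and 3.42 for Mki67. Top2a has other probe sets on the array, and the difference was 1.20 when their mean was taken. Cdk1, the kinase that drives entry into mitosis, was at 6.73 log2 in the 24 h-labelled array, 3.77 at 7 d, 8.59 in the sham tumour and 3.57 in healthy PBS. Kif23 and Kif11, motors of the mitotic spindle, had differences of 0.89 and 0.86 and were the list's 2 genes short of 2-fold. All 23 differences were positive.

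Fewer of the DNA replication genes passed 2-fold. Of the 23 genes above the filter 7 were past 2-fold higher and 0 lower, with medians of 0.77 in the 24 h-labelled array, -0.27 at 7 d and 2.19 in the sham tumour. Rrm2, the small subunit of ribonucleotide reductase, was at 7.34 log2 in the 24 h-labelled array, 4.65 at 7 d, 8.96 in the sham tumour and 3.94 in healthy PBS. Tk1, thymidine kinase of S phase, was at 6.42, 3.92, 8.56 and 3.72 log2 in the same order. Uhrf1, which maintains DNA methylation at replication, was at 6.04 log2 in the 24 h-labelled array, 3.82 at 7 d, 8.11 in the sham tumour and 3.82 in healthy PBS. The 7 d value of each of the 3 genes lay within 1 log2 of healthy PBS. Mcm6, a subunit of the replicative helicase, passed with a difference of 1.21, and another subunit, Mcm2, did not, with 0.66.

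Among the keratinocyte genes, 2 of 14 passed 2-fold and the rest of the list did not move with them. Krt14 was 12.2-fold higher in the 24 h-labelled array than in healthy PBS. Krt6a, a keratin of wounded and squamous epithelium, was at 6.70 log2 in the 24 h-labelled array, 4.62 at 7 d, 6.35 in the sham tumour and 4.74 in healthy PBS, and its difference of 1.96 was 0.95 with the mean of its probe sets. Sprr2f, a small proline-rich protein of cornifying epithelium, was at 7.57 log2 in the 24 h-labelled array, 4.85 at 7 d, 6.11 in the sham tumour and 3.85 in healthy PBS. Both lay above the sham tumour of the same experiment, Krt6a by 0.35, but their tumour differences disagreed between the experiments by 1.34 for Krt6a and 1.99 for Sprr2f, so neither order is larger than that gap. Trp63, the transcription factor p63 of basal cells, had a difference of -0.74, and Krt5, the main keratin of basal cells, of -0.29, with 9.71 log2 in the 24 h-labelled array and 6.39 in the sham tumour.

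Leukocyte transcripts were higher, most of all those of macrophages. Ptprc, the CD45 of all leukocytes, was at 8.42 log2 in the 24 h-labelled array, 6.22 at 7 d, 9.19 in the sham tumour and 5.44 in healthy PBS. Of the 21 macrophage genes 14 were past 2-fold higher and 0 lower, with medians of 1.66 in the 24 h-labelled array, 0.48 at 7 d and 2.09 in the sham tumour. C1qb, a chain of complement C1q made by tissue macrophages, was at 9.36 log2 in the 24 h-labelled array, 7.75 at 7 d, 9.90 in the sham tumour and 6.83 in healthy PBS. Cd68, a lysosomal protein of macrophages, was at 7.45, 5.87, 8.28 and 4.86 log2 in the same order. At 7 d both genes lay above healthy PBS and below the 24 h-labelled array. Fcgr1, the high-affinity receptor for IgG, differed by 2.98, Arg1, the arginase of alternatively activated macrophages, by 2.66 and Chil3, a chitinase-like protein of the same state, by 2.38. Cd163, the scavenger receptor for haptoglobin and haemoglobin, was at 6.12 log2 in the 24 h-labelled array, 4.48 at 7 d, 4.90 in the sham tumour and 4.55 in healthy PBS, and so was higher than in the sham tumour.

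Neutrophil genes were split. S100a8 was at 7.07 log2 in the 24 h-labelled array, 3.00 at 7 d, 9.21 in the sham tumour and 2.97 in healthy PBS. S100a9, its partner in calprotectin, was at 7.65, 3.74, 9.65 and 3.84 log2 in the same order. Their differences of 4.10 and 3.81 were among the 15 largest of all genes, and 2 further genes of the list of 10 passed 2-fold, Il1r2, the decoy receptor of interleukin-1, with 1.67 and Clec4d with 1.29. Csf3r, the receptor of the neutrophil growth factor G-CSF, had 0.87, and Lcn2, lipocalin-2, had 0.51 against 3.90 in the sham tumour. Of 13 T and NK cell genes 2 passed 2-fold higher, the granzymes Gzma (1.46) and Gzmb (1.37), against 4.83% of all genes. The list median was 0.44. Cd3e, a chain of the T cell receptor complex, was at 5.47 log2 in the 24 h-labelled array, 5.62 at 7 d, 5.87 in the sham tumour and 5.31 in healthy PBS, so no array stood out for it. Cd3g, another chain of the complex, was at 3.72, 3.07, 4.91 and 2.98 log2 in the same order. For Cd3g the 24 h-labelled array stood between healthy PBS and the sham tumour, with a difference of 0.74. Of the 2 B and plasma cell genes above the filter neither passed, with Cd22 at 0.13 and Cd79a at -0.11. Cpa3, a mast cell protease, differed by 1.06 and was the only one of 5 mast cell genes past 2-fold.

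Genes of antigen presentation and of the interferon response moved with the leukocyte genes. Of 10 dendritic and class II genes 6 were past 2-fold higher, with a median of 1.25, against 0.11 at 7 d and 2.08 in the sham tumour. H2-Ab1, a class II chain, was at 8.82 log2 in the 24 h-labelled array, 7.16 at 7 d, 9.09 in the sham tumour and 7.13 in healthy PBS. Of 16 interferon and antigen presentation genes 12 were past 2-fold higher and all 16 differences were positive, with medians of 1.16 in the 24 h-labelled array, -0.12 at 7 d and 2.12 in the sham tumour. Cxcl9, a chemokine induced by interferon-gamma that attracts T cells, was at 8.19 log2 in the 24 h-labelled array, 4.16 at 7 d, 9.85 in the sham tumour and 4.15 in healthy PBS. Cxcl10, which binds the same receptor, was at 6.34, 3.33, 8.19 and 3.08 log2 in the same order. For both chemokines the 7 d array was level with healthy PBS within 0.25 log2.

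The guanylate-binding protein gene Gbp2 is shown as an example of the members of this list whose promoter holds the interferon-stimulated response element (GAAA, 2 bases of any kind and GAAA again, in capitals, here on the opposite strand with its first base at -59). It lies on the plus strand at chr3:142620513-142620662 in RefSeq on GRCm38.p6.
Gbp2: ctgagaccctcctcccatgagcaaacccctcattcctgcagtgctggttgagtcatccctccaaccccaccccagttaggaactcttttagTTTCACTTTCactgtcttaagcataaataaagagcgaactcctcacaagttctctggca
Gbp2 was at 9.47 log2 in the 24 h-labelled array, 7.72 at 7 d, 10.33 in the sham tumour and 8.44 in healthy PBS, a difference of 1.03. The element was found in 5 of the 14 list genes with a promoter entry, which were Rsad2, Ifit1, Ifit3, Gbp2 and Gbp3, against 1.85% of all genes and 1.59% of all promoters. The promoters of Cxcl9 and Cxcl10 did not hold it in this window. Ifit1, which binds foreign RNA, differed by 1.46 and Gbp3 by 1.26.

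Cytokines and proteases of inflamed and invaded tissue were also higher. Of 15 acute inflammatory cytokine genes 7 were past 2-fold higher, with medians of 0.73 in the 24 h-labelled array, 0.04 at 7 d and 1.81 in the sham tumour. Ccl2, the chemokine that draws monocytes, was at 7.03 log2 in the 24 h-labelled array, 3.86 at 7 d, 8.54 in the sham tumour and 3.67 in healthy PBS. Cxcl2, which draws neutrophils, was at 5.75, 2.55, 8.27 and 2.62 log2 in the same order. Il1b, interleukin-1 beta, differed by 2.10 and Ptgs2, the inducible cyclooxygenase, by 1.90. In the 7 d array these 4 genes differed from healthy PBS by -0.63 to 0.19. Ccl8, a chemokine of macrophages, was at 9.95 log2 in the 24 h-labelled array, 7.72 at 7 d, 8.98 in the sham tumour and 6.34 in healthy PBS, so the 24 h-labelled array was the highest of the 4. Of 11 invasion protease genes 9 were past 2-fold higher, with medians of 1.71 in the 24 h-labelled array, 0.34 at 7 d and 2.74 in the sham tumour. Mmp13, a collagenase, was at 6.24 log2 in the 24 h-labelled array, 2.69 at 7 d, 8.62 in the sham tumour and 2.62 in healthy PBS. Mmp9, a gelatinase, was at 8.05, 4.34, 9.67 and 4.92 log2 in the same order. Mmp14, a membrane-bound collagenase of stroma, was at 9.05 log2 in the 24 h-labelled array, 9.12 at 7 d, 9.46 in the sham tumour and 6.72 in healthy PBS, and here the 7 d array was as high as the 24 h-labelled one.

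Stromal matrix genes formed a group that was higher in the 24 h-labelled array without being, at the median, much higher in the sham tumour. Several liver genes, described below, did so too. Of 17 fibroblast and collagen genes 9 were past 2-fold higher and 0 lower, and all 17 differences were positive, with medians of 1.07 in the 24 h-labelled array, 0.36 at 7 d and 0.13 in the sham tumour. Col1a1, the main chain of type I collagen, was at 9.99 log2 in the 24 h-labelled array, 10.54 at 7 d, 8.71 in the sham tumour and 7.69 in healthy PBS. Col5a1, a chain of type V collagen, was at 8.95, 8.43, 8.21 and 7.42 log2 in the same order. Both treated arrays were above the sham tumour for these collagens. For Col5a1 at 7 d (8.43 against 8.21) the order is smaller than the gap of 0.26 between experiments in its tumour difference. Col11a1, a chain of the fibril-forming type XI collagen, was at 5.59 log2 in the 24 h-labelled array, 5.53 at 7 d, 3.90 in the sham tumour and 3.91 in healthy PBS. Dkk2, a secreted modulator of WNT signalling, was at 6.80 log2 in the 24 h-labelled array, 6.40 at 7 d, 3.70 in the sham tumour and 3.62 in healthy PBS. For Col11a1 and Dkk2 the 2 arrays labelled with 17 mM alpha1-oleate were alike and the 2 PBS arrays were alike. In experiment 1 Dkk2 was at 4.88 log2 in the sham tumour, 5.37, 7.00 and 7.54 in the tumours given 1.7, 8.5 and 17 mM, and 4.59 in healthy PBS. Col11a1 was at 4.05 log2 in that sham tumour, 5.68 and 6.07 at 8.5 and 17 mM, and 3.85 in healthy PBS. Lox, the enzyme that cross-links collagen, was also higher in the sham tumours, by 0.79 in experiment 2 and 1.57 in experiment 1. It differed by 1.80 in the 24 h-labelled array and 1.75 at 7 d. Mmp2, a gelatinase of fibroblasts, differed by 1.5 and 1.56, against -0.56 in the sham tumour. Of 16 endothelial genes 0 passed 2-fold, with a median of 0.42 and 0.43 at 7 d. With 4.83% of all genes higher, a count of 0 in a list this short sets nothing apart.

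Of 20 urothelial differentiation genes 0 passed 2-fold, yet all 20 differences were negative, between -0.88 and -0.13, with medians of -0.54 in the 24 h-labelled array, 0.08 at 7 d and -3.49 in the sham tumour. Over all 11969 genes, 0.284% passed 2-fold lower and 6540 had a negative difference, so a count of 0 lower in a list this short sets nothing apart. Upk3b, a uroplakin, was at 9.83 log2 in the 24 h-labelled array, 10.56 at 7 d, 6.08 in the sham tumour and 10.71 in healthy PBS. Krt20, the keratin of umbrella cells, was at 8.48, 9.24, 5.15 and 9.23 log2 in the same order. Pparg, a nuclear receptor of urothelial differentiation, had a difference of -0.63. The 24 h-labelled array was thus below healthy PBS by less than 1 log2 in each case, and the 7 d array within 0.33 log2. In the 17 mM tumour of experiment 1 the urothelial list median was -0.72. Junction and adhesion genes had a median of -0.56 over 17 genes, with 0 past 2-fold and 16 negative, led by Marveld3, a tight-junction protein, at -0.98. Epcam, the epithelial adhesion molecule, had -0.70.

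Smooth muscle genes went the other way. Of 15 contractile genes 0 passed 2-fold and all 15 differences were positive, from 0.08 to 0.95, with medians of 0.27 in the 24 h-labelled array, -0.33 at 7 d and -1.95 in the sham tumour. Over all 11969 genes, 4.83% passed 2-fold higher and 5257 had a positive difference. Des, desmin, was at 11.33 log2 in the 24 h-labelled array, 10.66 at 7 d, 9.72 in the sham tumour and 10.98 in healthy PBS. Acta2, smooth muscle actin, was at 12.44, 12.02, 11.12 and 12.31 log2 in the same order. Pcp4, a calmodulin-binding protein, was at 9.87 log2 in the 24 h-labelled array, 9.60 at 7 d, 3.50 in the sham tumour and 10.02 in healthy PBS. The loss of muscle transcripts seen in the sham tumour was therefore not present in the 24 h-labelled array. It was not present in the 17 mM tumour of experiment 1 either, where the median of the 15 contractile genes was 0.68. Of 6 striated muscle genes and 5 adipose genes 0 passed 2-fold, with medians of 0.11 and -0.26, and counts of 0 in such short lists set nothing apart.

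**Figure D2:**
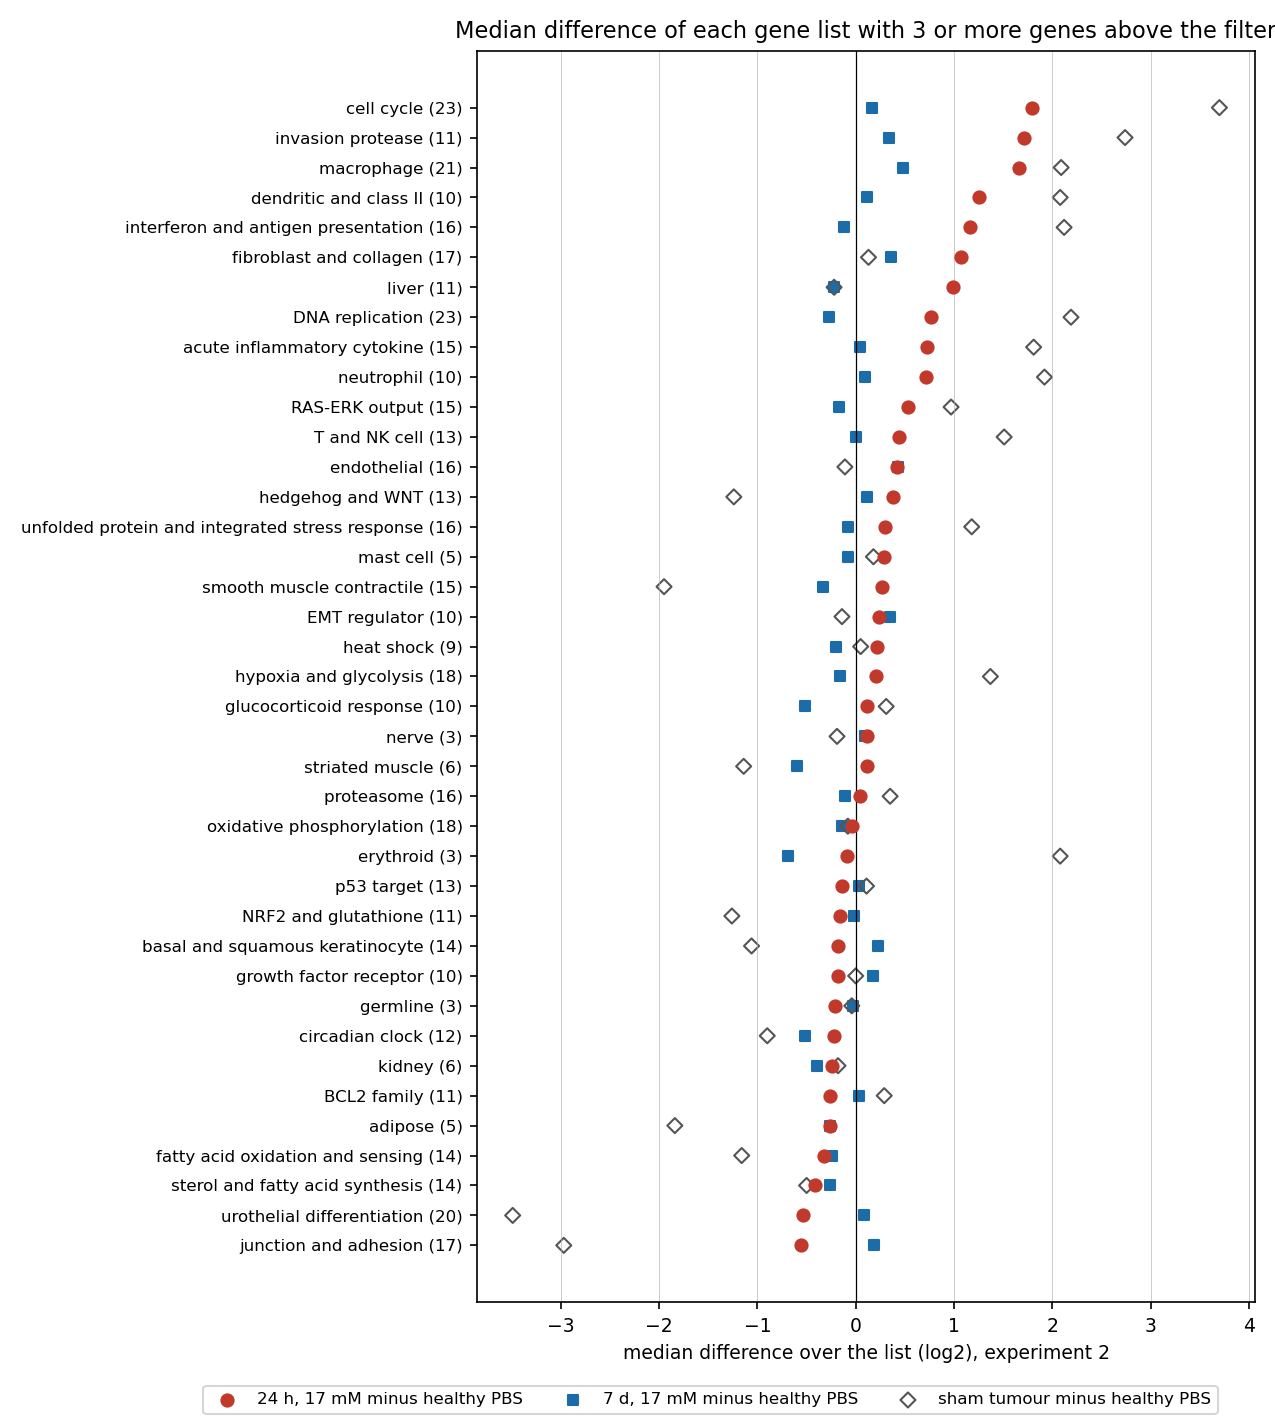
Median log2 difference from healthy PBS of experiment 2 (horizontal axis) for each gene list with 3 or more genes above the filter (rows, number of genes in brackets), in the 24 h-labelled array (circles), the 7 d array (squares) and the sham tumour (diamonds), which share 1 healthy PBS array. The cell cycle, DNA replication, macrophage, neutrophil, T and NK cell and class II lists have circles between the squares and the diamonds, the fibroblast, liver and mast cell lists have circles to the right of both, and smooth muscle has its circle at 0.27 and its diamond at -1.95.

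The signalling, stress and metabolic lists held between 0 and 4 genes called higher each, where 4.83% of all genes were higher. A count of 0 or 1 in lists this short sets nothing apart. Of 15 genes that report RAS-ERK signalling 4 passed 2-fold higher (list median 0.53), which were the growth factors Hbegf (2.39) and Ereg (1.90), the AP-1 factor Fosl1 (1.61) and the ERK phosphatase Dusp6 (1.41). Of 10 regulators of epithelial-mesenchymal transition 2 passed, S100a4, a calcium-binding protein of motile cells (2.91), and the filament protein Vim (1.14). Of 13 hedgehog and WNT genes 2 passed, Dkk2 and Dkk3 (1.12), and of 10 growth factor receptors 0. Of 18 hypoxia and glycolysis genes 2 passed, the enzymes Hk2 (1.52) and Pgk1 (1.13), against 13 in the sham tumour. Hmox1, haem oxygenase, was at 7.94 log2 in the 24 h-labelled array, 5.59 at 7 d, 8.97 in the sham tumour and 5.72 in healthy PBS, and was the only one of 11 NRF2 and glutathione genes past 2-fold. Nqo1, a typical NRF2 target, had a difference of -0.69.

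Of 9 heat shock genes and 11 BCL2 family genes 0 passed 2-fold, and 1 each of 16 genes of the unfolded protein and integrated stress response (Psat1 of serine synthesis, 1.49) and of 13 p53 targets (the kinase Plk2, 1.11). Sesn2, a stress-induced target of p53, had -0.46. Lipid lists leaned lower in the 24 h-labelled array, as they did at 7 d against the same healthy PBS array. The fatty acid oxidation list had medians of -0.32 and -0.24 in these 2 arrays. Over all genes, 0.284% passed 2-fold lower in the 24 h-labelled array. Lss, lanosterol synthase of the cholesterol pathway, was at 5.69 log2 in the 24 h-labelled array, 6.01 at 7 d, 4.17 in the sham tumour and 6.96 in healthy PBS, and was the only one of 14 sterol and fatty acid synthesis genes past 2-fold (median -0.41, and -0.26 at 7 d). Of 14 fatty acid oxidation and sensing genes 0 passed, with Angptl4, a PPAR-regulated inhibitor of lipoprotein lipase, at 0.99 and Pdk4, which spares glucose in fasting, at -0.70. Of 18 oxidative phosphorylation, 16 proteasome and 12 circadian clock genes 0 passed in the 24 h-labelled array. The medians of these 3 lists were -0.04, 0.04 and -0.22. Of 10 glucocorticoid response genes only Lox passed, and of 3 erythroid genes 0.

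A plasma protein gene of the liver, Alb, gave the largest increase of any gene above the filter. The promoter of Alb, which encodes serum albumin, is shown for that reason, and liver genes are known to be driven through HNF1 sites. The motif searched (GTTAATNAT) is in capitals, on the plus strand with its first base at -32, at chr5:90460720-90460869 in RefSeq on GRCm38.p6.
Alb: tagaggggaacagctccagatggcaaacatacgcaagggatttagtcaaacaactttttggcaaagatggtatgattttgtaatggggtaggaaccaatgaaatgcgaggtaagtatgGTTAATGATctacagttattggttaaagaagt
Among the 9 liver genes with a promoter entry, Alb was the only one with this run of letters, which 0.577% of all genes and 0.484% of all promoters held. Alb was at 8.80 log2 in the 24 h-labelled array, 3.52 at 7 d, 3.78 in the sham tumour and 3.85 in healthy PBS, a 30.9-fold difference. Serpina1c, an alpha-1-antitrypsin, was at 7.69, 4.20, 4.06 and 4.42 log2 in the same order. Apoa2, an apolipoprotein of high-density lipoprotein, was at 7.39 log2 in the 24 h-labelled array, 5.06 at 7 d, 4.87 in the sham tumour and 5.09 in healthy PBS. The 3 other arrays of the experiment were low and alike for each of these genes.

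In experiment 1 the same genes were high in the tumours given the 2 higher doses. Alb was at 4.04 log2 in the sham tumour, 3.87, 8.83 and 10.15 in the tumours given 1.7, 8.5 and 17 mM, and 4.57 in healthy PBS. Serpina1c was at 3.70 log2 in that sham tumour, 3.54, 6.73 and 8.11 at the same doses, and 3.99 in healthy PBS. Of the 11 liver genes above the filter 5 were past 2-fold higher in the 24 h-labelled array (Alb, Serpina1c, Apoa2, Fgg and Apoa1), with a median of 0.99 that became -0.21 when the lowest 50% of genes were left out. Ttr, transthyretin, which other tissues make too, went the other way, at 8.29 log2 in the 24 h-labelled array, 8.35 at 7 d, 4.48 in the sham tumour and 8.78 in healthy PBS. Whether liver tissue or RNA was present in the preparation was not tested.

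Several of the largest decreases were in transcripts known from kidney, which were high in both healthy PBS arrays. Miox, an inositol oxygenase of the proximal tubule, was at 4.48 log2 in the 24 h-labelled array, 3.35 at 7 d, 3.45 in the sham tumour and 6.40 in healthy PBS. Kap, the androgen-regulated protein of mouse kidney, was at 7.53, 5.72, 6.07 and 9.32 log2 in the same order. The healthy PBS array was the highest of the experiment for both, and the 24 h-labelled array was second. In experiment 1 Kap was at 5.97 log2 in the sham tumour, 5.79, 5.96 and 5.84 in the tumours given 1.7, 8.5 and 17 mM, and 9.61 in healthy PBS. The 15 largest decreases ran from -1.92 (Miox) to -1.19 (Fxyd2, a subunit that regulates the sodium pump of the tubule) and took in Aadat, Keg1, Gpm6a, Hsd3b4, Slc27a2, Elf5, Pkhd1, Lss, Ugt2b35, Lpar3, Egfl6 and Dnajc6. With the mean of the healthy PBS and 7 d arrays as control, Kap had a difference of 0.01 and Slc27a2, a fatty acid transporter of kidney and liver, of 0.195. Of the 6 kidney genes above the filter only Kap passed 2-fold, and Umod, uromodulin, lay below the filter at 4.37 log2 in the 24 h-labelled array, 3.88 at 7 d, 3.34 in the sham tumour and 6.42 in healthy PBS.

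The position of the array between healthy and tumour was not the same for all genes. On the linear scale, the change of the 24 h-labelled array was a median of 16.2% of the sham tumour change of experiment 1 over the 701 higher genes (quartiles 9.06% and 25.5%), and 38.4% over the 656 lower genes (quartiles 25.3% and 45.7%). Against the sham tumour of experiment 2, which shares the healthy PBS array, the medians were 21.8% and 38.7%. Among the higher genes the medians by list were 12.6% for 23 cell cycle genes, 17.2% for 18 DNA replication genes, 16.0% for 6 neutrophil genes, 11.3% for 7 T and NK cell genes and 23.6% for 11 interferon genes. They were 38.1% for 6 dendritic and class II genes and 57% for 11 macrophage genes. Among the lower genes the 17 urothelial genes had 36.8%, the 12 junction genes 40.0%, and the 7 smooth muscle genes -25.1%. The last is a change opposite in sign to that of the sham tumour. Macrophage genes thus stood nearer to the tumour than cell cycle genes did.

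**Figure D3:**
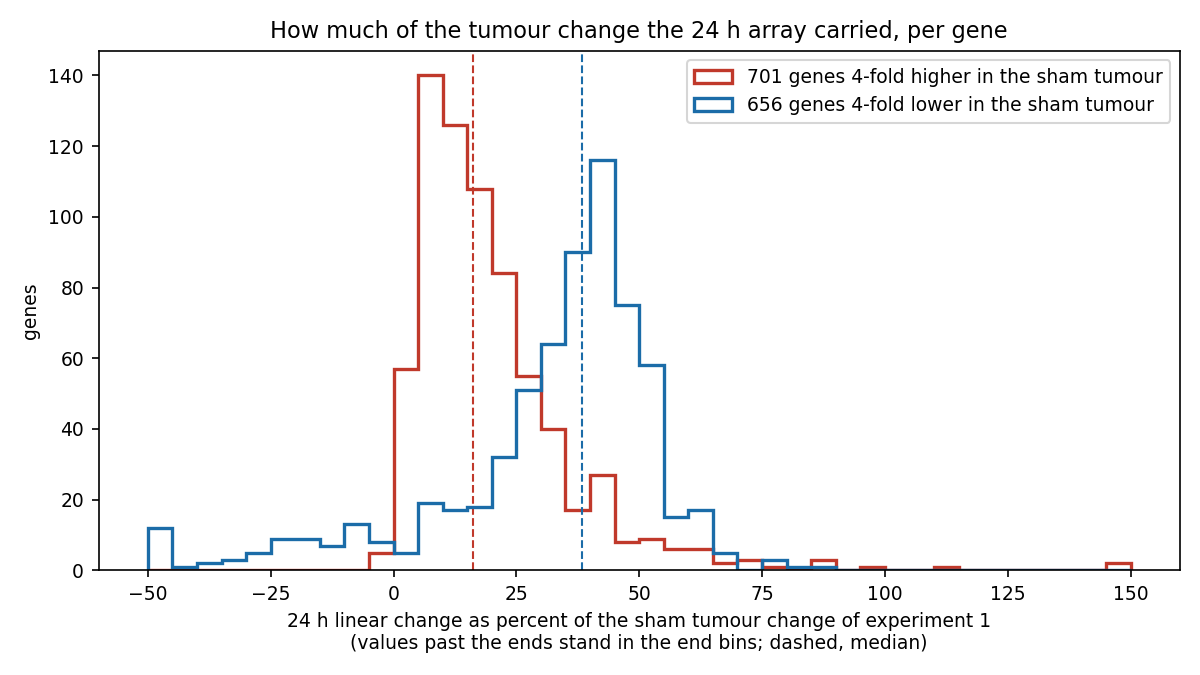
Number of genes (vertical axis) by the linear change of the 24 h-labelled array as a percent of the sham tumour change of experiment 1 (horizontal axis), for 701 genes higher and 656 genes lower in that tumour. The dashed medians stand at 16.2% for the higher and 38.4% for the lower genes, and values past the ends of the axis are placed in the end bins.

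The 5 arrays of experiment 1 share no array with the 24 h-labelled pair and allow the whole profile to be compared. This comparison was added after the values had been seen. Across the 11969 genes the 24 h differences had a Pearson correlation of 0.727 (Spearman 0.673) with the sham tumour differences of experiment 1. The correlation was 0.776 (0.715), 0.895 (0.831) and 0.912 (0.844) with the tumours given 1.7, 8.5 and 17 mM, all taken against the same healthy PBS array of experiment 1. For the 7 d differences the 4 values were 0.156, 0.159, 0.203 and 0.191. These coefficients run across genes, which are not independent replicates, and share probe sets and, within experiment 1, one control.

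The root mean square distance in log2 units, which also counts the size of a change, placed the tumours in the same order for the 24 h differences. The 24 h differences lay 0.968 from those of the sham tumour, 0.797, 0.416 and 0.311 from those of the tumours given 1.7, 8.5 and 17 mM, and 0.522 from no difference, which is where a bladder like healthy PBS would lie. The 7 d differences lay 1.269 from the sham tumour, 1.128, 0.816 and 0.719 from the 3 doses, and 0.321 from no difference. The sham tumours of the 2 experiments lay 0.343 apart on the same measure. The 24 h-labelled array was therefore nearer to the treated tumours of 8.5 and 17 mM than to healthy PBS. Its 0.311 from the 17 mM tumour cannot be ranked against the 0.343 between the sham tumours, whose changes were larger. Over the 701 genes higher in the sham tumour of experiment 1, its median was 1.12, against 1.63 in the 17 mM tumour. The 7 d array was nearest to healthy PBS. The origin of the tumour-type transcripts in this array was not tested.

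**Figure D4:**
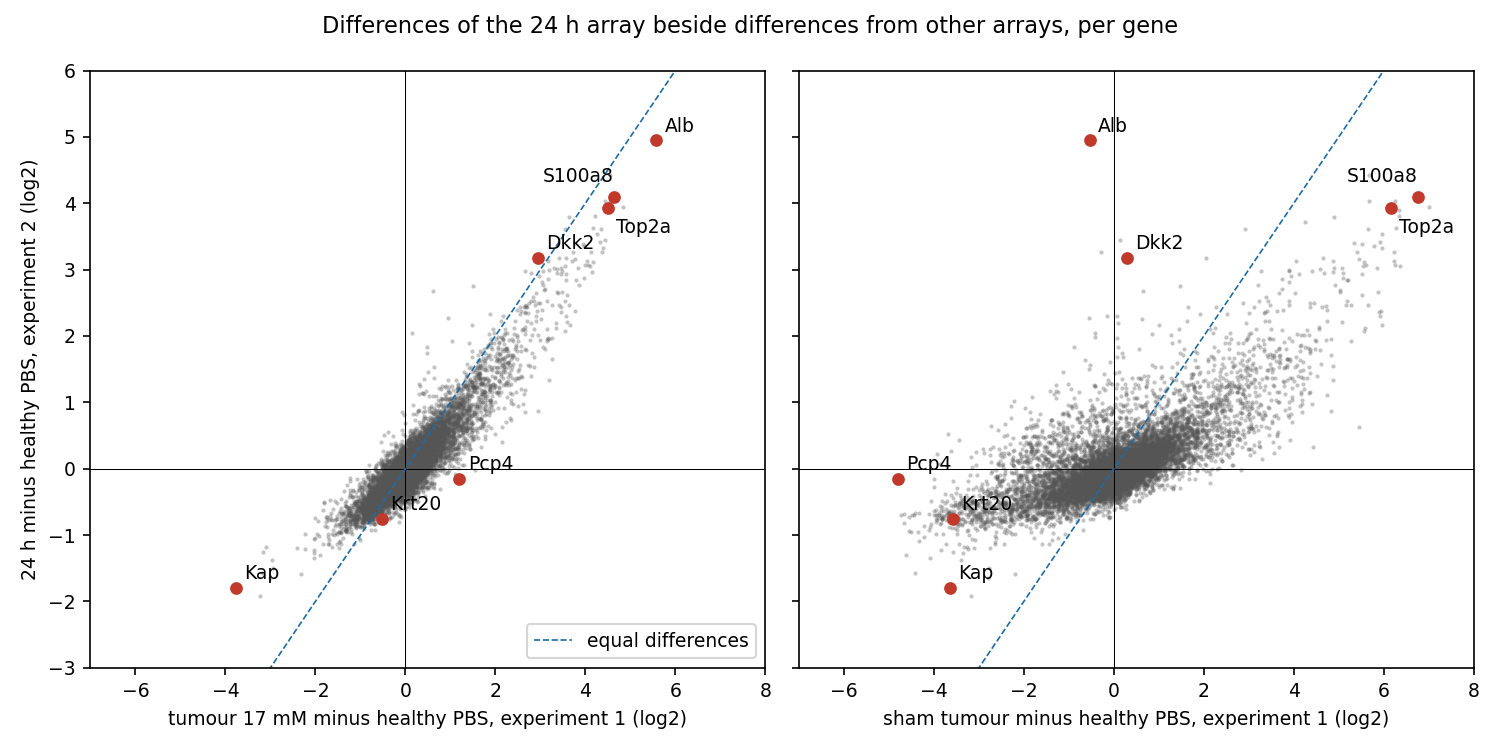
Log2 difference of the 24 h-labelled array from healthy PBS (vertical axis, experiment 2) against the difference of the 17 mM tumour (left) and of the sham tumour (right) from healthy PBS of experiment 1 (horizontal axes), 1 point for each of 11969 genes. Points follow the line of equal differences more closely on the left (Pearson 0.912) than on the right (0.727), where Alb, Dkk2 and Pcp4 stand off the cloud.

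Gene by gene, 484 of the 578 genes higher in the 24 h-labelled array (83.7%) were also 2-fold or more higher in the sham tumour of experiment 1, which is 27.1% of the genes higher there and stands against 14.9% of all genes. For the tumours given 1.7, 8.5 and 17 mM the counts were 499 (86.3%), 544 (94.1%) and 536 (92.7%), against 13.6%, 9.73% and 8.19% of all genes. The 536 shared with 17 mM were 54.7% of the 980 genes higher there. All 34 lower genes were lower in the sham tumour and in the 17 mM tumour of experiment 1, against 15% and 2.36% of all genes, and were 1.90% and 12.1% of the genes lower there. Of the 578 genes, 84 were within 2-fold of healthy PBS in that sham tumour, and 64 of those 84 were higher in the 17 mM tumour. Of all 8387 genes within 2-fold in that sham tumour, 166 were higher in the 17 mM tumour.

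A set of 34 genes lay 2-fold or more above all 3 other arrays of experiment 2, and 0 lay as far below all 3. The farthest above were Alb, Serpina1b, Serpina1c, Apoa2, Cyp3a11, a cytochrome P450 of liver, Chl1, a neural adhesion molecule, Spon2, a matrix protein, Serpina3n, an acute-phase protease inhibitor, Apoa1 and Fgg, the fibrinogen gamma chain. Serpina3n was at 10.15 log2 in the 24 h-labelled array, 7.49 at 7 d, 8.48 in the sham tumour and 6.97 in healthy PBS. Spon2 was at 8.86, 7.01, 6.43 and 6.60 log2 in the same order. In experiment 1 Spon2 was at 7.27 log2 in the sham tumour, 8.38, 9.89 and 9.67 in the tumours given 1.7, 8.5 and 17 mM, and 6.65 in healthy PBS, and so was highest at the higher doses there. Chl1 was at 5.83 log2 in the 24 h-labelled array, 3.85 at 7 d, 3.62 in the sham tumour and 3.72 in healthy PBS, and its tumour difference disagreed by 1.55 between the experiments.

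All 34 of these genes were 2-fold or more higher than healthy PBS in the 17 mM tumour of experiment 1, 33 in the 8.5 mM tumour and 17 in the 1.7 mM tumour, and 6 in the sham tumour. By the same rule in experiment 1, 10 (29.4%), 31 (91.2%) and 30 (88.2%) of them lay 2-fold or more above both the sham tumour and healthy PBS at 1.7, 8.5 and 17 mM. Of all genes 0.409%, 1.19% and 1.48% did so. The 34 were chosen by differences within experiment 2, among genes that passed a filter on the mean of all 9 arrays, to which the tumours of experiment 1 contribute. Besides the liver genes the 34 took in Igf1, insulin-like growth factor 1, Thy1, an antigen of fibroblasts and T cells, Cd163, Cpa3 and F13a1, the clotting factor XIII chain of macrophages. The genes farthest below all 3 other arrays, Lrrc26, Krtap26-1, Depdc7, Acpp, Pym1, Gm5600, Sesn2, 2210010C04Rik, Spire2 and Crybg1, lay at most 0.51 log2 below the nearest of them.

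**Figure D5:**
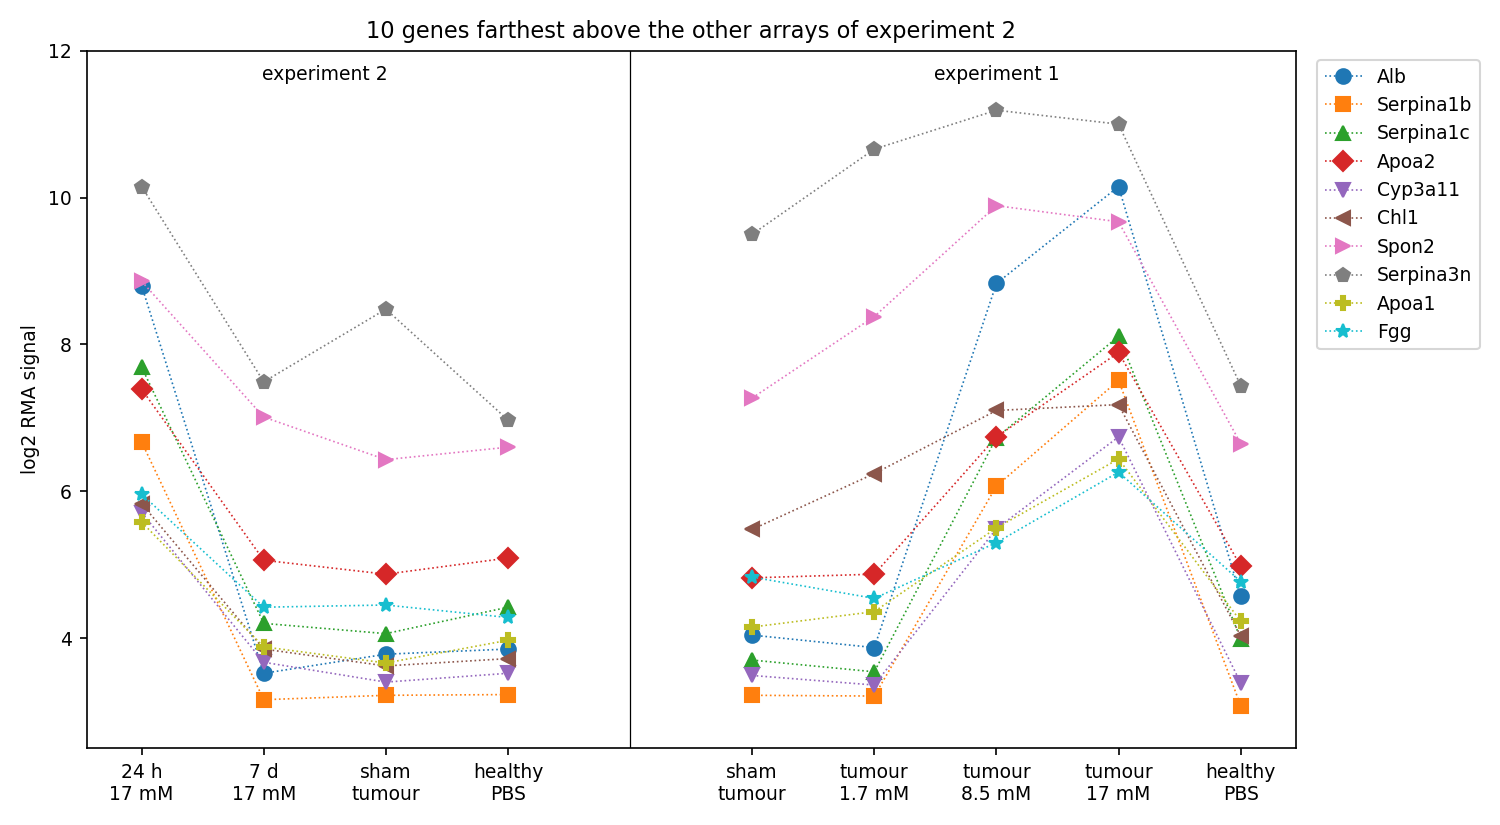
Log2 RMA signal (vertical axis) of the 10 genes farthest above the other arrays of experiment 2, in all 9 arrays (horizontal axis), with experiment 2 on the left and experiment 1 on the right, which were normalized apart. In experiment 2 the 24 h-labelled array is the highest for each gene, and in experiment 1 the tumours given 8.5 and 17 mM are the highest.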

How the data were processed

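The deposited table gives log2 RMA signals for 45077 probe sets of an Affymetrix mouse PM array in 9 samples. The authors normalized by RMA and used Transcriptome Analysis Console 4.0.1.36, per the submitters' processing notes; a genome build is not given in the sources used here. Per the labels' protocols, RNA of frozen, pulverised bladders was column-purified and 100 ng was amplified and labelled. Sorted values differed by 0.022 log2 on average within an experiment and by 0.329 between experiments, so differences were taken within an experiment.

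Of the probe sets, 28898 named 1 gene, 551 several and 15588 none in the platform annotation, 40 were controls, and 28689 were matched by Entrez number. The probe set with the highest mean over the 9 arrays stood for a gene (7180 genes had several), and genes in the lowest 30% by mean (below 4.16 log2) were left out. A gene was called at 2-fold, with no p-value, since each side is 1 array; the number of arrays limits the precision. Genes named were the 15 largest increases and 15 largest decreases, the 4 largest members of each list, the 10 genes farthest above and below the other arrays of experiment 2, and a fixed set of markers; others named in the text (such as Col11a1, Hmox1, Gbp2, Mcm2, Ttr, Umod and further list members) were chosen after their values were seen. The members and the 42 gene lists (629 genes, 562 measured, 496 above the filter) were chosen with earlier results of these data known. The Y-linked and inactive X lists served the label check. Promoter sequences and motif counts come from the RefSeq table. The scripts were tested on simulated data. Alternatives changed the probe set rule, the filter, the scaling, the fold, the control array and the choice of tumour genes. Python 3.11.15 with numpy 2.4.6, pandas 2.3.3, scipy 1.17.1 and matplotlib 3.10.9 was used.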

Additional observations from a re-analysis of the deposited data

Results flagged for a closer look

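Probe sets that name no single gene entered no comparison above. Of 5916 such probe sets above the filter, 246 (4.16%) were 2-fold or more higher in the 24 h-labelled array than in healthy PBS and 15 lower, against 122 higher and 27 lower at 7 d, so signal also differed in data that carry no gene name here.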

How the results depend on the processing

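No paired analysis was possible because each side is 1 array, the result comes from no test, and the replicate numbers follow accession order. The count of 578 higher genes stayed within 1.5 times under each alternative run except 4-fold in place of 2-fold, which left 132 higher and 0 lower. The count of 34 lower genes was 10 with the lowest 50% of genes left out, 56 with all 9 arrays quantile-normalized together, 253 without the healthy PBS array of experiment 2 (that of experiment 1 as control), 90 with the mean of both, and 21 with the mean of healthy PBS and 7 d. In the same order of settings, the percent of tumour-lower genes past 2-fold lower was 1.85, 6.89, 16.0, 11.3 and 2.74; it was 0 at 4-fold and 8.81 with genes chosen at 8-fold, and 16.1% of tumour-higher genes passed 4-fold. The median of the tumour-lower genes was -0.61 and -0.62 with quantile normalization of experiment 2 and of all arrays, -0.60 with arrays centred, -0.61 with both PBS arrays and -0.68 with genes chosen at 8-fold, where the tumour-higher genes had 1.61. With the mean of healthy PBS and 7 d as control, Kap (0.01) and Slc27a2 (0.195) reversed, and 71 of 88 named genes past 2-fold stayed past it; Col1a1 had 0.875 and Dkk2 1.79 there. With the mean of all probe sets, 79 of 87 stayed past 2-fold. The causes were not tested. Scalings moved the median of all genes by less than 0.1 log2. With 1 array a side, differences below 0.72 log2 lie below the 95th percentile of the gap between experiments.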

Other observations

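Genes that were higher in the 24 h-labelled array with little change in either sham tumour form a group of 23, taken at less than 0.5 log2 of tumour difference in both experiments. Besides liver genes and Dkk2 they held matrix genes, Col3a1, Col6a2, Col11a1 and the microfibril protein Mfap4, and genes of growth and remodelling, Igf1 and Mmp19. The choice of these genes used the tumour and healthy arrays of both experiments, so their small tumour difference is not a result.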
